A study of Mus musculus with 15 samples.

Results

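The genes described here encode the membrane sector (V0) of the vacuolar proton pump, the V-ATPase, and its accessory subunits. They were chosen by name, as the rows of the count table whose gene identifiers carry the symbols Atp6v0a1, Atp6v0a2, Atp6v0b, Atp6v0c, Atp6v0d1, Atp6v0e, Atp6v0e2, Atp6ap1 and Atp6ap2, which gave 9 of the 55573 genes. The rule itself used symbols only. Poly(A) RNA was sequenced from 15 trigeminal ganglia (TG) of 10-week-old male CD1 mice whose right cornea had been injured. The right ganglion, on the injured side, was taken after 12 days with 3 treatments per day. The 5 vehicle animals, the 5 animals given resolvin D6 (RvD6-standard, here RvD6) and the 5 given its stereoisomer (RvD6-isomer, here RvD6si) shared the injury, so no group was uninjured. The lipid dose for the ganglion libraries is not given in the sources used here.

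The V-ATPase pumps protons into lysosomes, endosomes and synaptic vesicles. Its V1 sector in the cytosol hydrolyses ATP and turns a ring of proteolipid subunits in the V0 sector, and protons cross the membrane between that ring and the a subunit. In neurons the proton gradient drives the loading of transmitters into vesicles, and in all cells it keeps lysosomes acid. The accessory subunits help the pump to assemble and reach its compartments.

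Each library held between 4125962 and 9903396 counted reads, with a median of 7756538. All 16 neuron markers were detected, and their summed level in CPM (counts scaled to the library's size) was 17060 to 19330 in vehicle, 10020 to 17740 in RvD6 and 15440 to 19980 in RvD6si ganglia. RvD6 replicates 6, 7, 9 and 10, at 15440, 13730, 10020 and 11190 CPM, were below every vehicle library. So were RvD6si replicates 12 and 15, at 15460 and 15440 CPM. Of the 16 neuron markers, 14 were lower with RvD6 than with vehicle, with a median log2 fold change of -0.34. With RvD6si 9 were higher and 7 lower, with a median of 0.05. The 8 erythroid markers summed to 2382 to 5067 CPM in vehicle, 5755 to 10620 in RvD6 and 936 to 12030 in RvD6si ganglia. The 9 neutrophil precursor markers summed to 110 to 590 CPM in vehicle, 692 to 2243 in RvD6 and 54.4 to 1967 in RvD6si ganglia. In both of these lists the high RvD6si library was replicate 15. Skeletal muscle markers reached 2402 CPM in RvD6 replicate 9 and 1705 in RvD6 replicate 8, against 37.7 to 369 in the other 13 libraries. Pituitary markers reached 3755 CPM in vehicle replicate 3 and 2319 in RvD6 replicate 10, with Lhb at 0 in every library. The part of these libraries' make-up in the results below was not tested, and in bulk tissue fewer cells of a type and less RNA per cell cannot be told apart.

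**Figure D1:**
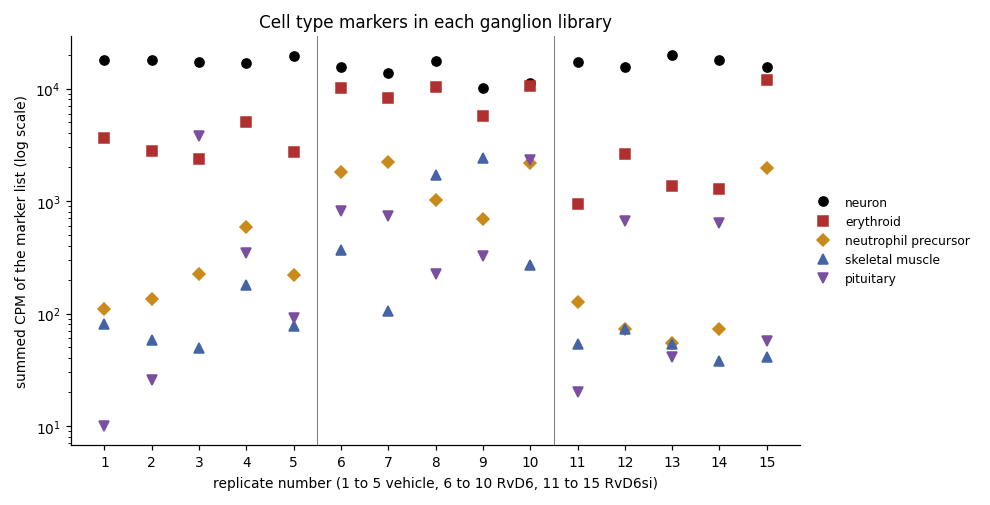
Summed CPM (log scale) of 5 marker lists in each of the 15 libraries, with grey lines between the groups. Erythroid sums lay at 5755 CPM or more in all 5 RvD6 libraries and in RvD6si replicate 15, and the neuron sum was lowest, at 10020 CPM, in RvD6 replicate 9.

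Atp6v0c, which encodes the c subunit of the proteolipid ring, shares read-length sequence with a copy of itself, in 9.24% of the stretches of 75 bases in its transcripts. The processed pseudogene Atp6v0c-ps2 (ENSMUSG00000080242.5, chr6:37806086-37806550, plus strand) is 465 bases long and matched Atp6v0c transcript 201 in 99.8% of them. The 1 difference was T111C, where the first letter is the base of Atp6v0c and positions count from 1 at the first base of Atp6v0c-ps2. Of the 391 stretches of 75 bases (1 read length) in the copy, 316 also occurred letter for letter in Atp6v0c. The stretch that ends at the difference (chr6:37806122-37806196 of GRCm38 in the copy) is given because, within the copied bases, a read must cover that base to tell the genes apart. Its last base, in capitals, is the only one that differs.
Atp6v0c: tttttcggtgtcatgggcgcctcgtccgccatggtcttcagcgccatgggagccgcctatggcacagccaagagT
Atp6v0c-ps2: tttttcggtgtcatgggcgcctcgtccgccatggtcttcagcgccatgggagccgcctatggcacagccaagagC

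Several V-ATPase genes carry the palindrome CACGTG, an E-box bound by the transcription factors TFEB, TFE3 and MITF. The promoters shown are those of the 3 members that held it and of Atp6v0e2, which did not. Those of Atp6v0a1, Atp6v0c, Atp6ap1 and Atp6ap2 did not hold it and are not shown. The RefSeq promoter table (build GRCm38.p6, 250 bases before to 50 after each start) held 8 of the 9 genes, all but Atp6v0a2. CACGTG, which reads the same on both strands, occurred in 3 of these 8 genes, and in 8.09% of the 27025 genes and 7.15% of the 32851 promoters of the table. The longer palindrome TCACGTGA, which contains CACGTG, occurred in 2 of the 8, Atp6v0d1 and Atp6v0e, and in 304 of the 27025 genes and 0.974% of the promoters. Each stretch runs from 100 bases before the RefSeq start to 19 after it, with CACGTG in capitals. These starts can differ from those of the GENCODE genes whose counts are reported.
Atp6v0b, chr4:117887310-117887429, minus strand: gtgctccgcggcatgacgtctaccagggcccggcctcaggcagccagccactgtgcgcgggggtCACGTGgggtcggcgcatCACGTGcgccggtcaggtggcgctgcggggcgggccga
Atp6v0d1, chr8:105566045-105566164, minus strand: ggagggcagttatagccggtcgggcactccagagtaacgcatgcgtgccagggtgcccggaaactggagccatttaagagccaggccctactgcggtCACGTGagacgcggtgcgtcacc
Atp6v0e, chr17:26676296-26676415, plus strand: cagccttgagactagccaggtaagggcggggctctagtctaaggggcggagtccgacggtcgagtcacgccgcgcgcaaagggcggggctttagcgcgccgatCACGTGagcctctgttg
Atp6v0e2, chr6:48537469-48537588, plus strand: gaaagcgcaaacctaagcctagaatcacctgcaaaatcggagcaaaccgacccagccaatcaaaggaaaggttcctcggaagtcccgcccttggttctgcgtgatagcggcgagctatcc
With the start as 0, the palindrome began at -36 and -18 in Atp6v0b, at -3 in Atp6v0d1 and at 3 in Atp6v0e. It did not occur in the 300 bases of Atp6v0e2, the paralogue of Atp6v0e.

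All 9 genes were well covered, with between 118 and 7104 reads per library, and all 9 passed the filter on low counts. In vehicle ganglia the highest level per length was that of Atp6v0e2, at 280 ± 40.1 CPM per kilobase of exons (SD, n = 5). The accessory subunit genes Atp6ap2, at 177 ± 41.7, and Atp6ap1, at 155 ± 27.3 CPM per kilobase, came next, and their vehicle ranges overlapped. Atp6v0b followed at 107 ± 12.6, with a vehicle range that overlapped that of Atp6ap1, then Atp6v0c at 52.0 ± 4.03 and Atp6v0d1 at 50.4 ± 13.8 CPM per kilobase. Atp6v0c and Atp6v0d1 did not differ beyond their spread, and only 3 of the 5 vehicle libraries had Atp6v0c above Atp6v0d1. The copy Atp6v0c-ps2 drew 20659 reads over the 15 libraries against 18457 for Atp6v0c, and the level given leaves the reads of the copy out. The level of Atp6v0c may thus be understated, and its place in this order depends on how the reads were assigned. The lowest were Atp6v0e at 13.9 ± 1.96, Atp6v0a2 at 5.47 ± 0.843 and Atp6v0a1 at 2.90 ± 0.778 CPM per kilobase, each below the gene before it in all 5 vehicle libraries.

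**Figure D2:**
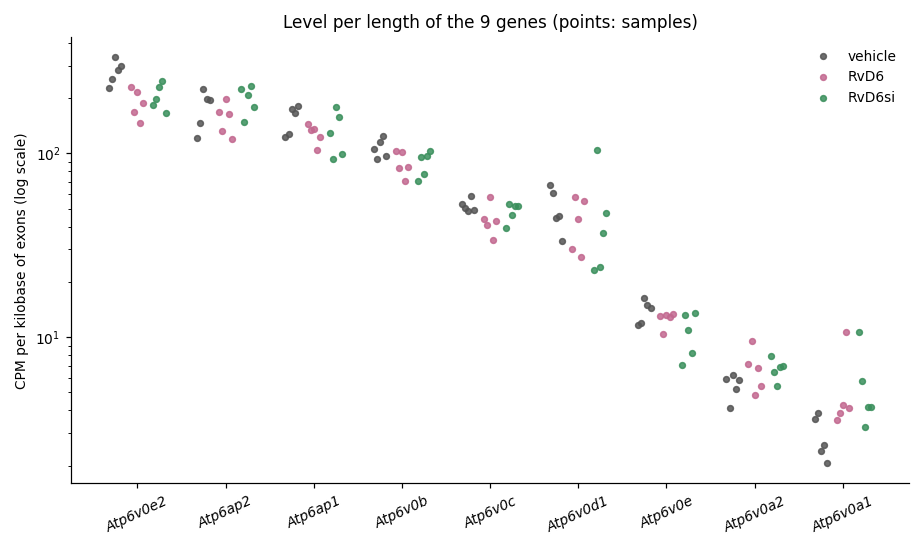
Level per length (CPM per kilobase of exons, log scale) of the 9 genes in order of their vehicle mean, with 1 point per library. Vehicle means run from 280 for Atp6v0e2 to 2.90 for Atp6v0a1. Reads counted for the copy Atp6v0c-ps2 are not part of the Atp6v0c values.

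The question of the comparisons is whether treatment of the injured cornea with either lipid changed these genes in the ganglion that innervates it. By the quasi-likelihood test of edgeR, 0 of the 9 genes passed an adjusted p of 0.05 for RvD6si against vehicle, where 0.67% of all 16567 genes tested did. The count was also 0 of 9 for RvD6 against vehicle (0.0% of all genes) and for RvD6si against RvD6 (0.235%). At an unadjusted p below 0.05, 1 gene was higher with RvD6si than with vehicle (Atp6v0a1, background 8.69%) and 1 was lower (Atp6v0e2, background 7.3%). The same genes were at that level for RvD6 against vehicle, Atp6v0a1 higher (background 7.63%) and Atp6v0e2 lower (background 5.99%). No member was for RvD6si against RvD6, where 8.82% of all genes were in either direction. By DESeq2, the tool that the study used, 1 of 9 passed the adjusted threshold for RvD6si against vehicle (background 8.13%), 1 for RvD6 against vehicle (background 1.92%) and 0 for RvD6si against RvD6 (background 0.936%). Both calls were Atp6v0e2. These p-values set a difference between groups against the spread between samples within groups, and both lipids were compared with the same 5 vehicle libraries.

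In no comparison did the 5 samples of a group lie wholly above or wholly below those of the other for any of the 9 genes. Among all genes, 2.48% were wholly higher and 2.4% wholly lower with RvD6si than with vehicle. The shares were 2.25% and 1.47% for RvD6 against vehicle, and 1.74% in either direction for RvD6si against RvD6. The median log2 fold change of the 9 genes was -0.10 for RvD6si and -0.23 for RvD6 against vehicle, and 0.09 for RvD6si against RvD6. The median over all genes tested was 0.02, 0.02 and -0.0039.

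**Figure D3:**
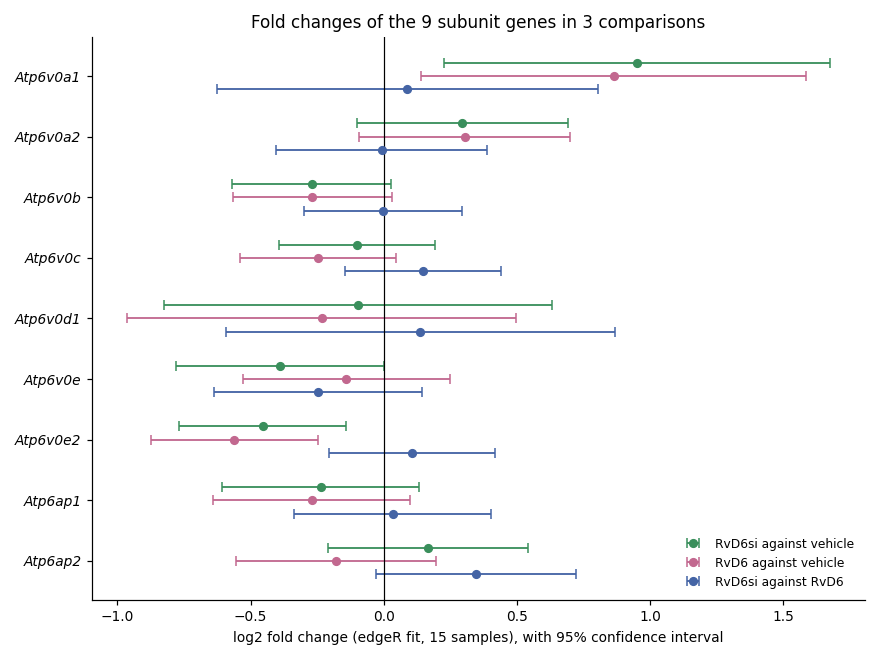
Log2 fold changes of the 9 genes from the edgeR fit, with 95% confidence intervals, for 3 comparisons. The intervals of Atp6v0a1 and Atp6v0e2 against vehicle lie wholly on one side of 0, and no gene passed the adjusted threshold in this fit.

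Atp6v0e2 and Atp6v0e encode alternative forms of the small e subunit. Normalized counts (reads scaled by DESeq2's size factor for the library) of Atp6v0e2 (ENSMUSG00000039347.7, chr6:48537615-48541801, plus strand) were 3893, 4340, 5700, 4868 and 5089 in vehicle replicates 1 to 5. They were 3927, 2944, 3707, 2520 and 3241 in RvD6 replicates 6 to 10, and 3146, 3403, 3886, 4220 and 2820 in RvD6si replicates 11 to 15. With each lipid 4 of 5 libraries were below every vehicle library, and the ranges overlapped only through vehicle replicate 1 with RvD6 replicate 6 and RvD6si replicate 14. The log2 fold change was -0.45 (SE 0.15) for RvD6si against vehicle, with an edgeR adjusted p of 0.137 and a DESeq2 adjusted p of 0.0442. For RvD6 against vehicle it was -0.56 (SE 0.15), with 0.143 by edgeR and 0.0305 by DESeq2. By unadjusted p the second of these ranked 161 of 16567 genes. With each library left out in turn, the first ran from -0.53 to -0.38 and the second from -0.64 to -0.49, and the lowest edgeR adjusted p was 0.111 and 0.110. RvD6si and RvD6 differed by 0.11 on the log2 scale, with a 95% interval from -0.21 to 0.42. Neuron marker sums were below every vehicle library in RvD6 replicates 6, 7, 9 and 10 and in RvD6si replicates 12 and 15. They were lowest in RvD6 replicate 9, where Atp6v0e2 was also lowest. Erythroid sums were highest in RvD6si replicate 15, the lowest RvD6si library for Atp6v0e2. The part of these marker sums was not tested. A set of 5 libraries, called here those of high marker sums, was left out in a fit chosen after seeing the data. It held the highest pituitary (replicates 3 and 10), muscle (8 and 9) and erythroid (15) sums. RvD6 replicates 6 and 7 were kept, though their erythroid sums were 10070 and 8326 CPM and their neutrophil precursor sums 1828 and 2243 CPM. They were the only RvD6 libraries left in every comparison without the set. The log2 fold changes of Atp6v0e2 were then -0.31 (RvD6si) and -0.43 (RvD6) against vehicle, with edgeR adjusted p of 0.443 and 0.712.

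Atp6v0e (ENSMUSG00000015575.15, chr17:26663231-26699647, plus strand), whose promoter holds the palindrome, had 311, 319, 434, 399 and 382 normalized counts in vehicle replicates 1 to 5. It had 349, 284, 352, 346 and 360 in RvD6 replicates 6 to 10 and 191, 357, 289, 217 and 361 in RvD6si replicates 11 to 15. The 3 lowest RvD6si libraries were below every vehicle library, and the other 2 lay inside the vehicle range. For Atp6v0e the log2 fold change was -0.39 (SE 0.19) for RvD6si against vehicle, unadjusted p 0.0503, adjusted p 0.314 by edgeR. It was -0.14 for RvD6 against vehicle (95% interval -0.53 to 0.25).

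Atp6v0e2 made up nearly all the counts of this pair. Its share was 92.8% ± 0.303 (SD, n = 5) in vehicle, 90.5% ± 1.57 in RvD6 and 92.3% ± 2.69 in RvD6si ganglia. Vehicle shares kept within 92.4% to 93.1%, above all 5 RvD6 shares, which ran from 87.9% to 91.9%. RvD6si shares ran from 88.7% to 95.1%, on both sides of the vehicle range. The share was not tested, and how often shares of other gene pairs separate the groups in this way was not computed.

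**Figure D4:**
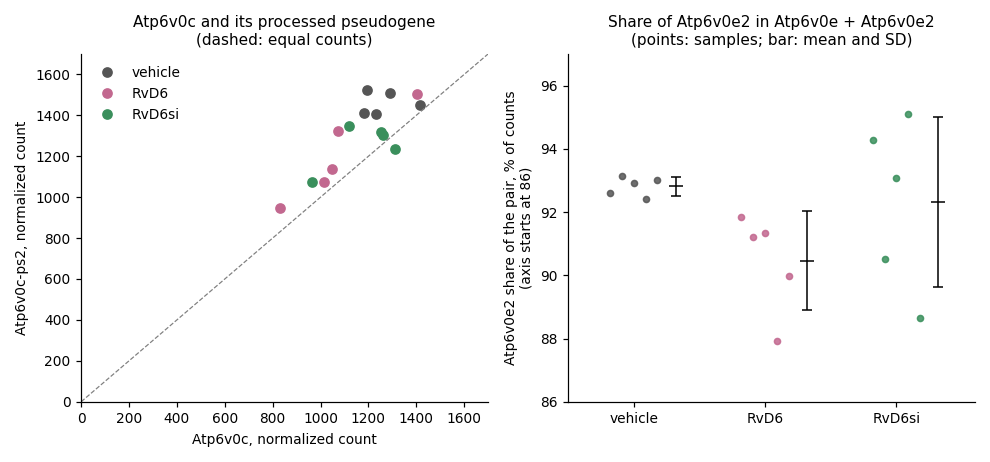
Left, normalized counts of Atp6v0c-ps2 against Atp6v0c in each library, with a dashed line of equal counts. Right, the share of Atp6v0e2 in the counts of Atp6v0e and Atp6v0e2 (% of counts, axis from 86), where the 5 RvD6 libraries lie below the vehicle range of 92.4% to 93.1%. This separation was not tested.

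Atp6v0a1 and Atp6v0a2 encode forms of the large a subunit, the stationary side of the proton channel. Atp6v0a1, the form known for synaptic vesicles (ENSMUSG00000019302.16, chr11:101009452-101063719, plus strand), had 169, 181, 113, 122 and 97.05 normalized counts in vehicle replicates 1 to 5. It had 167, 187, 200, 504 and 196 in RvD6 replicates 6 to 10, and 505, 276, 152, 196 and 197 in RvD6si replicates 11 to 15. RvD6 replicate 9 and RvD6si replicate 11 were far above the rest, and 4 of 5 libraries of each lipid were above every vehicle library. For Atp6v0a1 the log2 fold change was 0.95 (SE 0.35) for RvD6si against vehicle, with an edgeR adjusted p of 0.182, and 0.86 (SE 0.34) for RvD6 against vehicle, with 0.294. Without replicate 11 the first was 0.59 (adjusted p 0.486), and without replicate 9 the second was 0.44 (adjusted p 0.670). Without the 5 libraries of high marker sums the first was 0.99 (unadjusted p 0.0149, adjusted p 0.291) and the second 0.29 (adjusted p 0.944), and RvD6si against RvD6 was 0.70 (adjusted p 0.713), against 0.09 with all libraries. RvD6 replicate 9 also had the highest skeletal muscle sum, 2402 CPM, and the lowest neuron sum, while RvD6si replicate 11 had 53.9 and 17230 CPM; the part of muscle RNA was not tested.

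Atp6v0a2, the form known for the Golgi and endosomes (ENSMUSG00000038023.12, chr5:124628576-124724455, plus strand), had 198 to 302 normalized counts in vehicle (median 280), 234 to 470 in RvD6 (median 332) and 261 to 384 in RvD6si ganglia (median 330). The ranges overlapped, with 3 RvD6 and 4 RvD6si libraries above every vehicle library. The log2 fold change was 0.30 for both lipids against vehicle (SE 0.19), with adjusted p of 0.468 for RvD6si and 0.507 for RvD6 by edgeR. For RvD6 it was 0.65 (unadjusted p 0.0200, adjusted p 0.674) without the 5 libraries of high marker sums and 0.15 without replicate 7, and with the length trend removed it was 0.15 for RvD6si and 0.17 for RvD6. Of its exonic bases, 663 are shared with 4930404A12Rik on the opposite strand, which had 0 counts. Of the counts of all 4 genes for a subunits, with Tcirg1 and Atp6v0a4, Atp6v0a2 held 49.0% and Atp6v0a1 25.7% in vehicle ganglia.

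Of the proteolipid ring, Atp6v0c (ENSMUSG00000024121.13, chr17:24163866-24169702, minus strand) had 1291, 1230, 1183, 1417 and 1194 normalized counts in vehicle replicates 1 to 5. It had 1074, 1015, 1401, 832 and 1047 in RvD6 replicates 6 to 10 and 964, 1310, 1117, 1261 and 1253 in RvD6si replicates 11 to 15. All RvD6 libraries but replicate 8 were below the vehicle range, while 3 of the RvD6si libraries lay within it. By edgeR the log2 fold change was -0.25 (SE 0.14, adjusted p 0.456) for RvD6 and -0.10 (SE 0.14, adjusted p 0.775) for RvD6si against vehicle. Atp6v0c-ps2, the copy shown above, had 20659 reads over the 15 libraries against 18457 for Atp6v0c, and Atp6v0c held 46.3% ± 1.98 (SD, n = 5) of the pair in vehicle, 47.3% ± 1.51 in RvD6 and 48.4% ± 2.29 in RvD6si ganglia. Which gene these reads came from cannot be told apart where the sequences are the same. With the counts of both added together, an alternative chosen after seeing the data, the log2 fold change was -0.28 (adjusted p 0.355) for RvD6 and -0.16 (adjusted p 0.565) for RvD6si.

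Atp6v0b, which encodes the c″ subunit of the same ring (ENSMUSG00000033379.13, chr4:117884326-117887333, minus strand), had 1375 to 1821 normalized counts in vehicle (median 1545), 1054 to 1523 in RvD6 (median 1254) and 1053 to 1508 in RvD6si ganglia (median 1415). The ranges overlapped, and 3 RvD6 and 2 RvD6si libraries were below every vehicle library. The log2 fold change was -0.27 (SE 0.14) for each lipid against vehicle, with adjusted p of 0.365 for RvD6si and 0.424 for RvD6 by edgeR. It was -0.13 and -0.15 with the length trend removed, and -0.18 for RvD6 without the 5 libraries of high marker sums. RvD6si and RvD6 differed by -0.0028, with a 95% interval from -0.30 to 0.30. Its exons share 243 bases with Gm12841 on the opposite strand, which had 1 read in all.

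Atp6v0d1 encodes the d subunit, which joins the ring to the central stalk. Its normalized counts (ENSMUSG00000013160.7, chr8:105524465-105566047, minus strand) were 867, 786, 575, 584 and 428 in vehicle replicates 1 to 5. They were 389, 764, 567, 354 and 711 in RvD6 replicates 6 to 10 and 303, 1352, 307, 476 and 608 in RvD6si replicates 11 to 15. It was the most variable member within the RvD6si group, with a coefficient of variation of 71.3%, and RvD6si replicate 12 was above every other library. Atp6v0d1 had a log2 fold change of -0.10 (SE 0.35, adjusted p 0.927) for RvD6si and -0.23 (SE 0.35, adjusted p 0.817) for RvD6 against vehicle by edgeR. Without replicate 12 the first was -0.62 (unadjusted p 0.0373, adjusted p 0.279, edgeR).

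**Figure D5:**
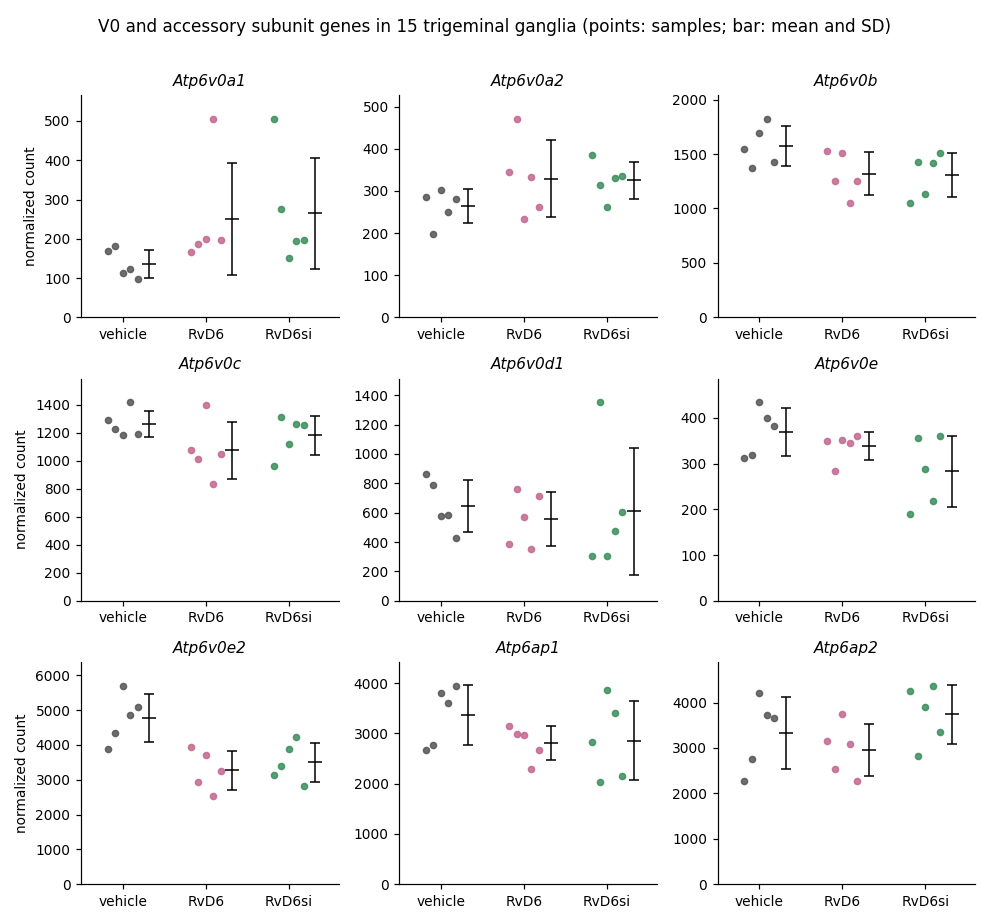
Normalized counts of the 9 genes in the 15 libraries, by group, with points for libraries in order of replicate number and black bars for the mean and SD of each group (n = 5). The groups overlap for every gene, and single high libraries stand out for Atp6v0a1 (504 in RvD6 and 505 in RvD6si) and Atp6v0d1 (1352 in RvD6si).

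Atp6ap1, also called Ac45 (ENSMUSG00000019087.13, chrX:74297097-74304721, plus strand), had 2673 to 3951 normalized counts in vehicle (median 3615), 2289 to 3151 in RvD6 (median 2969) and 2040 to 3863 in RvD6si ganglia (median 2835). The ranges overlapped. The log2 fold change against vehicle was -0.24 (SE 0.18, adjusted p 0.545) for RvD6si and -0.27 (SE 0.18, adjusted p 0.529) for RvD6 by edgeR. Without the 5 libraries of high marker sums these were -0.09 and -0.11, and the first was -0.13, -0.38 and -0.15 without replicates 12, 13 and 15. Atp6ap2, also known as the prorenin receptor (ENSMUSG00000031007.2, chrX:12587801-12617049, plus strand), had 2272, 2759, 4217, 3715 and 3655 normalized counts in vehicle replicates 1 to 5. It had 3152, 2542, 3744, 3089 and 2264 in RvD6 replicates 6 to 10, and 4252, 2813, 3896, 4370 and 3360 in RvD6si replicates 11 to 15. In the RvD6si group 3 libraries were above every RvD6 library, and 2 were above every vehicle library. The log2 fold change was 0.17 (SE 0.18) for RvD6si against vehicle and -0.18 (SE 0.18) for RvD6 against vehicle. The first was 0.05 without replicate 1 and 0.27 without replicate 3, and with the GC trend removed they were 0.02 and -0.34. Between the stereoisomers Atp6ap2 had the lowest p of the 9 genes, with RvD6si above RvD6 by 0.35 (95% interval -0.03 to 0.72, unadjusted p 0.0685, adjusted p 0.603 by edgeR).

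Over the 15 libraries the members did not vary as 1 block, as given by Pearson's r of log2 CPM. The closest pair was Atp6v0b and Atp6v0c, with r of 0.81, and 0.81 also after group means were removed. Atp6v0e2 and Atp6ap1 had r of 0.77, and also 0.77 after group means were removed. Atp6v0a1 and Atp6v0e2 had -0.78, and -0.65 after group means were removed. Of all genes tested, the most alike to Atp6v0e2 were Actg1 (0.96) and Anxa5 (0.94), and to Atp6v0a1 they were Gmfb (0.96) and Tmem30a (0.94). Atp6v0a2 went with Kcnn2 (0.83) and Ubr1 (0.81), Atp6v0b with Atp5d (0.92) and Dynlrb1 (0.91), and Atp6v0c with Ccdc85b (0.91) and AI837181 (0.89). Atp6v0d1 went with Ube2d2a (0.92) and Capns1 (0.91), and Atp6v0e with Rpl10-ps3 (0.97) and Rpl10 (0.94). Atp6ap1 went with Gm2423 (0.93) and Gm7232 (0.92), and Atp6ap2 with Stx12 (0.92) and Epdr1 (0.91). These are descriptions over libraries that differed in depth and marker sums. The part of depth, RNA quality and tissue make-up in these correlations was not tested.

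The other genes of the pathway set the members in context. Of the 13 genes for V1 subunits, 9 were tested. Atp6v1g2, a G subunit gene of neurons, passed the threshold for RvD6si against vehicle, with a log2 fold change of -0.76 (SE 0.15, adjusted p 0.0346 by edgeR), and was at -0.49 (adjusted p 0.191) for RvD6. The call was lost without the 5 libraries of high marker sums (-0.64, adjusted p 0.133), with the length or the GC trend removed (adjusted p 0.0601 and 0.0544), and in 9 of the 15 fits that left out 1 library (replicates 1 to 5, 11, 13, 14 and 15), where the adjusted p reached 0.116. Its locus overlaps Nfkbil1 on the opposite strand. No other V1 gene passed in any of the 3 comparisons. Of the 9 V1 genes 7 were lower with RvD6si and 9 with RvD6 than with vehicle, with medians of -0.25 and -0.30, and 6 were higher with RvD6si than with RvD6, with a median of 0.05. For RvD6si against RvD6 the V1 gene of lowest p was Atp6v1a, a catalytic subunit gene, at 0.33 (adjusted p 0.339).

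Of 5 further V0-related genes (Tcirg1, Atp6v0a4, Atp6v0d2, Atp6ap1l and Rnasek), 3 were tested, Atp6v0a4 and Rnasek having at most 6 and 7 reads in any library. Tcirg1, for the a3 subunit of osteoclasts, was at -0.47 (adjusted p 0.523) for RvD6si against vehicle, and at -0.30 and -0.24 without vehicle replicates 4 and 5. Atp6v0d2, the paralogue of Atp6v0d1 known from osteoclasts and macrophages, had 0, 25, 6, 3 and 7 reads in vehicle replicates 1 to 5, 48, 37, 33, 10 and 62 in RvD6 replicates 6 to 10 and 5, 0, 0, 0 and 5 in RvD6si replicates 11 to 15. All 5 RvD6 libraries lay above all 5 RvD6si libraries, a separation found in either direction for 1.74% of all genes tested. The RvD6 libraries overlapped the vehicle libraries only through replicates 2 and 9. Atp6v0d2 had a log2 fold change of 2.40 (SE 0.99) for RvD6 against vehicle, with adjusted p of 0.307 by edgeR, 0.183 by DESeq2 and 0.0492 by DESeq2 with the 2 groups compared, and it was 3.44 without vehicle replicate 2. For RvD6si against RvD6 it was -3.90 (SE 1.11), with adjusted p of 0.239 by edgeR and 0.0234 by DESeq2. Macrophage marker sums were 97.6 to 139 CPM in vehicle, 90.8 to 174 in RvD6 and 83.2 to 144 in RvD6si ganglia. Of the 10 macrophage markers, 7 were higher and 3 lower with RvD6 than with vehicle (median log2 fold change 0.30). For RvD6si against RvD6, 7 were lower and 3 higher (median -0.52). Erythroid and neutrophil precursor sums were above every vehicle library in all 5 RvD6 libraries and in RvD6si replicate 15. The part of these cell types in the values of Atp6v0d2 was not tested.

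Neither the 5 genes above nor the 3 other pathway lists held a gene past the edgeR threshold in any of the 3 comparisons. Of 19 genes for V-ATPase assembly and lysosomal mTORC1 regulation, 18 were tested, with medians of -0.05, -0.11 and 0.05 in the 3 comparisons, and those of lowest p were Lamtor5 (-0.42, adjusted p 0.165, RvD6si against vehicle), Ccdc115 (-0.59, 0.223, RvD6 against vehicle) and Rptor (0.39, 0.542, RvD6si against RvD6). Lamtor5 was at -0.19 with the length trend removed, and without the 5 libraries of high marker sums Ccdc115 was at -0.39 and Rptor at 0.19. Of the 4 MiT/TFE factors, which bind the palindrome above, 3 were tested, with lowest p for Tfeb at 0.82 (adjusted p 0.469) for RvD6si against vehicle. Mitf was at 0.84 (0.409) for RvD6 against vehicle and -0.51 (0.781) for RvD6si against RvD6. Tfeb was at 0.48 without replicate 15, Mitf between the lipids at -0.26 without replicate 9, and without the 5 libraries of high marker sums the 3 values were 0.28, 0.53 and -0.30. The medians of the 3 were 0.33, 0.82 and -0.09 in the 3 comparisons. Of 9 synaptic vesicle genes, whose products work beside the pump, Sv2b had the lowest p for RvD6si against vehicle at 1.00 (adjusted p 0.0637 by edgeR, 0.0040 by DESeq2) and for RvD6si against RvD6 at 0.66 (0.405). Their medians were 0.42, 0.15 and 0.20, and Sv2b passed for RvD6si against vehicle in other fits (adjusted p 0.0282 with at least 10 counts in every sample). Vamp2 had the lowest for RvD6 against vehicle at 1.495 (0.311), but was at 0.58 (0.772) without replicate 9 and 0.62 (0.921) without the 5 libraries of high marker sums.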

How the data were processed

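The authors reverse transcribed 1 ng of total RNA per ganglion with an oligo-dT primer (adapted Smart-seq2, Nextera XT libraries), sequenced it for 75 cycles, aligned the reads to GRCm38 with GENCODE M22 annotation by Rsubread and deposited 1 table of raw counts per gene from featureCounts. The table's header names featureCounts 1.5.0-p1 and the submitters' processing notes name Subread 1.6.5. Symbols, transcripts and GC content came from GENCODE M21, which names 99.7% of the identifiers. The kit marks no strand, so reads of opposite-strand overlaps cannot be told apart.

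Counts were tested with edgeR 4.0.16 (quasi-likelihood F test, 15 samples and 3 groups in 1 fit, TMM, filterByExpr with a minimum count of 10, Benjamini-Hochberg, threshold 0.05) in R 4.3.3, after a test on simulated data. DESeq2 1.42.0 was an alternative, with its default independent filtering. Filtering at 0.05 was run first. The default of 0.1 was chosen after the count of genes called at 0.05 was seen to differ from an earlier result. Both are given. CPM used TMM library sizes. Intervals and SE come from the edgeR fit. The alternatives were other normalizations, filters, sample sets, length and GC trends, removal of the 10 most counted genes, thinning to 4125962 counts and each sample left out.

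The members and lists were chosen with earlier results of these data known. All 9 members are named. Of the other pathway lists, every gene past the threshold and the gene of lowest p per comparison are named, with the 2 genes most correlated with each member. Atp6v0c-ps2, Atp6v0a4, Rnasek, Atp6ap1l and values of Atp6v0d2 per sample were added after values were seen. Satellite glia markers summed to 8631 to 10480 CPM in vehicle, 6715 to 8395 in RvD6 and 6199 to 9341 in RvD6si ganglia. Every RvD6 sum thus lay below the vehicle range, and its part in the results was not tested. For the other marker lists summed CPM is given over all 15 libraries. It ran from 12210 to 22160 for myelinating Schwann cells, 1182 to 2262 for fibroblasts and 91.2 to 157 for endothelium. The most abundant gene of each marker list was Nefl (neuron), Apoe (satellite glia), Pmp22 (Schwann), Csf1r (macrophage), Hba-a1 (erythroid), Ngp (neutrophil precursor), Acta1 (muscle), Gh (pituitary), Dcn (fibroblast) and Cldn5 (endothelium). Among the marker lists edgeR called 1 of 16 neuron markers higher for RvD6si against vehicle (Elavl4, log2 fold change 1.13, adjusted p 0.0346) and 6 of 9 muscle markers lower for RvD6si against RvD6.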

Additional observations from a re-analysis of the deposited data

Results flagged for a closer look

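In 2 of the 27 sets of 5 samples examined (9 genes in 3 groups), 1 library lay far from the other 4 by Dixon's gap test on log2 CPM, whose critical value is 0.71. Chance marks about 1 in 20 such sets. Atp6v0a1 was highest in RvD6 replicate 9 (504 normalized counts), with a gap of 0.835 of the group's range. Atp6v0e was lowest in RvD6 replicate 7 (284 normalized counts), with a gap of 0.836 of the range.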

How the results depend on the processing

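In every edgeR alternative, the 15 fits that each leave out 1 library included, 0 of the 9 genes passed the adjusted threshold in all 3 comparisons. By DESeq2 1 passed for each lipid against vehicle with default filtering, a setting chosen after the run with filtering at 0.05 had been seen. With filtering at 0.05 it was also 1 each, and with the 2 groups compared 2 (RvD6si) and 1 (RvD6). The calls were Atp6v0e2 at -0.45 and -0.55 with all samples (adjusted p 0.0442 and 0.0305, or 0.0461 and 0.0305 with filtering at 0.05) and -0.45 and -0.55 with 2 groups (0.0388 and 0.0152), and Atp6v0a1 with RvD6si at 0.96 (0.0378). Genes called for RvD6si against vehicle, 111 by edgeR, were 920 by DESeq2, 979 by DESeq2 with 2 groups, 903 with filtering at 0.05, 315 with at least 10 counts in every sample, 63 with the length trend removed, 3 without the 5 libraries of high marker sums, and 0 (without replicate 11) to 229 (without replicate 9) with 1 library left out, with 6 to 13 without replicate 1, 2, 3, 4, 5 or 14, 68 without 13 and 168 without 12. For RvD6 against vehicle, 0 by edgeR (2256 at an unadjusted p below 0.05), they were 369, 664 and 369 by the same DESeq2 fits, 38 by edgeR with 2 groups, 56 with no filter, 24 with at least 10 counts, 28 after thinning, and 0 to 51 (without replicate 15), with 17 without 7 and 1 without 2. For RvD6si against RvD6, 39 by edgeR, they were 185, 182 and 189 by DESeq2, 17 with 2 groups, 59 with no filter, 23 with at least 10 counts, and 2 (without replicate 11, 13 or 14) to 156 (without replicate 15), with 13 without 8 or 9 and 25 without 10. The cause was not tested.

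The median log2 fold change of the members for RvD6 against vehicle was -0.15 with the length trend removed. With RvD6si it was -0.034 with the GC trend removed and ran from -0.17 (without replicate 5) to -0.034 (without 11) with 1 library left out, and between the lipids from 0.013 (without 9) to 0.12 (without 15), with 0.016 without 10. Against vehicle with RvD6si, Atp6v0c was -0.03 with the GC trend removed, -0.05 without replicate 4 and -0.03 without 11. With RvD6, Atp6v0d1 ran from -0.37 (without 7) to -0.11 (without 1), Atp6v0e was -0.08 without 3 or 7, and Atp6ap2 ran from -0.30 (without 1) to -0.08 (without 3). Per exonic length, the share of Atp6v0e2 in its pair was 95.3% in vehicle and 93.7% in RvD6 ganglia. Small differences changed sign. Atp6v0d1 for RvD6si against vehicle was 0.069 with the length trend removed and ran from -0.62 to 0.076 with 1 library left out. For RvD6si against RvD6, Atp6v0a2 was 0.0066 with 2 groups, 0.020 with no filter and 0.0100 with the GC trend removed, Atp6v0b was 0.011, 0.023, 0.026 (length), 0.00084 (GC) and 0.039 (thinned), and Atp6ap1 was -0.0096 (length). With 1 library left out these ran from -0.10 to 0.15 (Atp6v0a2), -0.070 to 0.070 (Atp6v0b), -0.10 to 0.14 (Atp6ap1), -0.27 to 0.51 (Atp6v0a1) and -0.38 to 0.31 (Atp6v0d1). With the longest transcript as length, Atp6v0b and Atp6ap1 changed places in the order of levels. No paired analysis was possible because the replicate numbers run from 1 to 15 and none is shared between groups.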
